A study of Mus musculus with 3 samples.

Results

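Tagged BCL11A in MEL cells gave a list of 2370 occupancy peaks, and the 541 of them (22.8%) that lie on chromosome 9 from 18 Mb to the end of the chromosome are described here. They were chosen by position alone: a peak belongs to the set when it is on chromosome 9 and its centre is at or above 18 Mb in mouse build mm9, whatever its score or width. That boundary was drawn with the peak list in view and it cuts through a dense block of peaks, so the number of peaks in the set and their density are a description and carry no test. A peak is an interval in which the captured DNA gave more reads than the peak caller allowed for, and its score is the caller's own measure of strength, which has no stated unit and no value under 50 in this list.

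BCL11A, a zinc-finger protein, recruits repressor complexes to DNA. In red cell precursors it is best known for keeping the embryonic and fetal globin genes silent once the adult genes are in use, and it also acts in lymphoid and brain development. MEL cells are a mouse erythroleukemia line, arrested at an early red cell precursor stage. Mouse chromosome 9 carries many genes of blood biology. In the RefSeq gene table of assembly GRCm38.p6, those on it include Dnmt1 (the maintenance DNA methyltransferase), Smarca4 (the ATPase of SWI/SNF remodelling complexes) and Epor (the erythropoietin receptor, which red cell precursors need to survive). Fli1, an ETS factor activated by Friend virus in mouse erythroleukemia, Ets1, Kmt2a and Alas1, an enzyme of heme synthesis, lie further along. That table belongs to another build than the peaks, so no peak was assigned to any of these genes, and the base sequence under the peaks was not analysed here.

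The cells carried BirA, a bacterial biotin ligase, together with BCL11A bearing a FLAG and biotin tag, and chromatin bound by the tagged protein was pulled down on streptavidin. The labels speak of cell clones and do not give their number; how much tagged protein the cells made beside their own BCL11A is not stated in the labels either. The 2 other samples were MEL cells with BirA alone and input DNA, and all 3 had the same culture in 10% serum and fixation in 1% formaldehyde for 5 min. Only the list of the tagged sample was analysed here, so there is 1 library, no replicate, no error between samples and no comparison with a control; a gain in read coverage over a stretch of the chromosome cannot be told apart from denser occupancy. The list holds no expression values, so the cell type could not be checked against marker genes.

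The set falls into a dense run at its start and a sparse remainder. From the first peak, at 18013797 to 18014531, no neighbouring centres were more than 250 kb apart until 24234281, and this run of 6.22 Mb held 527 of the 541 peaks (97.4%). Its density was 84.7 peaks per Mb, and the peaks covered 8.50% of its bases. The other 14 peaks were spread over the following 97.7 Mb at 0.143 per Mb. The run is the distal portion of a longer block of 1027 peaks that starts at 11385633, below the boundary.

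The boundary falls between peaks of the same block. The 5 peaks just inside it had their centres 14.2, 33.2, 84.2, 92.2 and 94.2 kb beyond 18 Mb, with scores of 64.70, 88.16, 56.05, 59.29 and 55.67. The 5 just outside lay 55.9, 138, 162, 172 and 210 kb before it, with scores of 68.46, 56.59, 65.23, 69.39 and 136.00. The scores of both sides overlap, and the highest of them, 136.00, lies outside.

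Within the run, peaks were sparser and weaker over the first 2 Mb than over the next 3. The 1 Mb bins starting at 18 and 19 Mb held 60 and 54 peaks, with median scores of 58.1 and 59. The bins starting at 20, 21 and 22 Mb held 104, 100 and 114 peaks, with medians of 67.5, 63.2 and 65.9. The bin starting at 23 Mb held 78 (median 63.4), and the last 17 peaks of the run fell in the bin starting at 24 Mb (median 58.4). The run ends at 24234281 and fills only the first part of that bin, so its count is not comparable with the others. These stretches were set apart after their values were seen.

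The middle stretch also held most of the strong peaks. Between 20 and 23 Mb, 50 of 318 peaks scored over 100 (15.7%), against 3 of 114 between 18 and 20 Mb (2.63%) and 11 of 95 from 23 Mb to the end of the run (11.6%). In the whole list, 10.0% of peaks scored over 100. The median width was 967 bp in the middle stretch, 764 bp before it and 774 bp after it. Peaks covered 11.4, 10.7 and 12.4% of the 3 middle bins and 5.10 and 4.66% of the first 2. The middle bins thus had more and wider peaks than every other 1 Mb bin of the run, the last of which the run fills only in part. However, the median score of the bin starting at 21 Mb did not exceed that of the bin starting at 23 Mb.

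**Figure D1:**
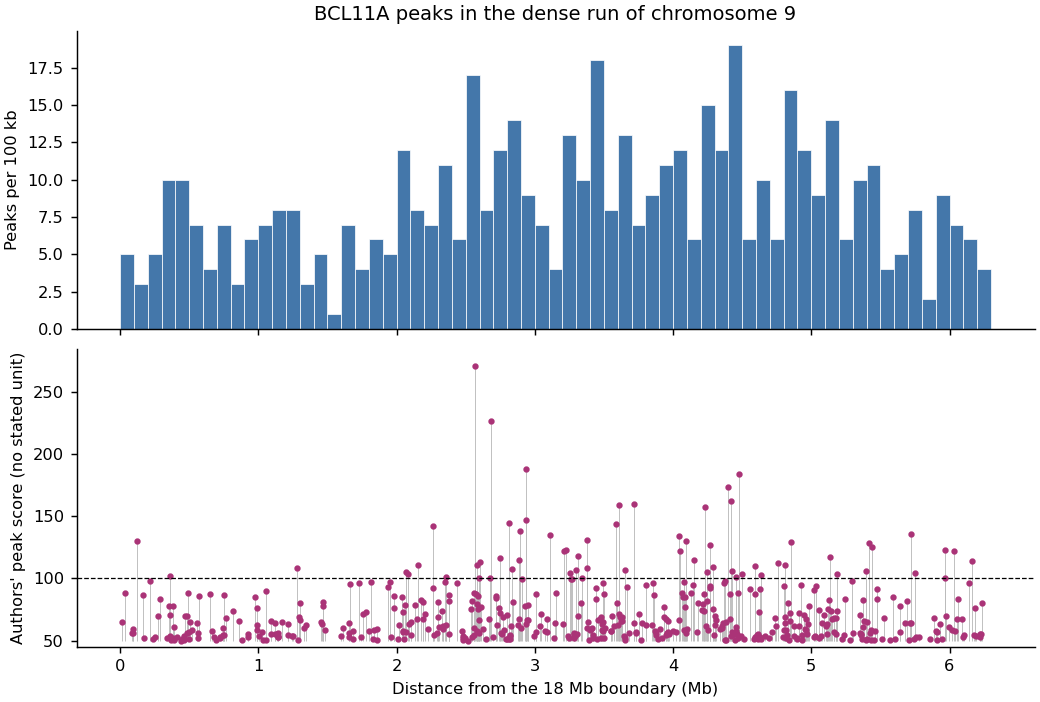
Peaks of the dense run against distance from the 18 Mb boundary in Mb. The upper panel counts peaks in bins of 100 kb, which ran from 1 to 19, and each point of the lower panel is 1 peak with its score, the dashed line marking 100; 50 of the 64 peaks over 100 lie between 2 and 5 Mb.

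On a scale of 100 kb, the run had no empty bin. The 63 bins held 1 to 19 peaks with a median of 8, and the 22 bins with 10 or more held 282 peaks. The 5 longest stretches without a peak were 82.0 kb (18569479 to 18651479), 112 kb (19343925 to 19456130), 109 kb (19486272 to 19595268), 74.8 kb (19861036 to 19935849) and 74.97 kb (23782393 to 23857357). The other neighbouring centres in the run were at most 60 kb apart. The first 4 of these stretches lie in the sparser portion below 20 Mb and the fifth near the end of the run, so the middle had none.

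Runs with neighbouring centres at most 50 kb apart show the same layout. There were 10 such runs with at least 10 peaks, holding 515 of the 541 peaks (95.2%). The longest spanned 2.10 Mb from 21202326 to 23298770, with 232 peaks, or 111 per Mb, a median score of 64.4 and 33 peaks over 100. The run before it, from 20433337 to 21150455, held 77 peaks (107 per Mb, median score 67.3) and 14 over 100. The run from 19935850 to 20382240 had the highest median score of the 10, 71.4 over 43 peaks. The lowest was 54.3 over 11 peaks, from 18651480 to 18763400, where no peak passed 87.30.

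The 5 densest windows of 100 kb were picked by their number of peaks, so they are alike in it. Their median scores ran from 58.4 to 79.3. In the fullest, from 22373492 to 22473491, the 20 peaks had a median score of 59.5, and 4 of them scored over 100. The window from 20517227 to 20617226 held 19 with a median of 77.1, 4 over 100. The window from 21406581 to 21506580 also held 19, but with a median of 60.1 and a highest score of 96.60. The remaining windows held 17 peaks each, from 20739220 to 20839219 (median 58.4) and from 22205423 to 22305422 (median 79.3). Over the whole run, crowding and score did not go together closely. Across its 63 bins of 100 kb, Spearman's rho between the number of peaks and their median score was 0.08, and across its 527 peaks rho between a peak's score and the number of other peaks within 50 kb was 0.10; the points share 1 library, and both values are descriptions.

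Strong peaks were still more frequent in crowded surroundings. Each peak of the run had between 1 and 19 others within 50 kb, with a median of 10. Of the 267 peaks with 10 or more, 43 scored over 100 (16.1%), and their median width was 954 bp. Of the 162 with 6 to 9, 14 did (8.64%), with a median width of 807 bp, and of the 98 with 5 or fewer, 7 did (7.14%), with a median width of 789 bp. In the whole list, 10.0% of peaks scored over 100. The median scores of the groups were 65.5, 61.2 and 62.3. The groups thus differed in the share of strong peaks more than in the typical peak. The stretch from 20 to 23 Mb held the fullest 1 Mb bins and also 50 of the run's 64 peaks over 100. Crowding was not separated from position along the run, so whether the groups differ within a stretch was not tested.

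The strongest peak of the set was at 20566600 to 20568780. It measured 2181 bp and scored 270.83, the third highest value of the whole list. Within 15 kb of its centre lay 7 other peaks with scores of 54.65 to 110.68, the nearest centre 7.06 kb away. The second, at 20681987 to 20684388, scored 226.83 and had 2 peaks within 15 kb, with scores of 100.27 and 52.98. The third, at 20932226 to 20934651, scored 188.26 and had 5, among them one of 147.39 that begins 17 bases after it ends.

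The next in rank lay further along. The peak at 22473224 to 22476711 scored 184.46 and, at 3488 bp, was the widest of the set. Those at 22399064 to 22401124 and 22415662 to 22417448 scored 173.37 and 162.36 and lie in the densest window. Scores of 160.11, 159.03 and 157.54 were found at 21715839 to 21718154, 21609238 to 21611612 and 22226627 to 22228752. The peak beside the third summit, at 20934669 to 20935982, came next with 147.39. Places 11 to 15 went to peaks at 20811514 to 20813033 (144.92), 21584033 to 21586875 (143.54), 20260860 to 20262993 (142.54), 20891040 to 20893419 (138.04) and 23722390 to 23723910 (136.09).

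These 15 peaks were wide, with widths of 1314 to 3488 bp, and 14 of them lay between 20 and 23 Mb. Another peak of the list had its centre within 10 kb in 14 of the 15. Of the 100 highest scores in the whole list, 24 belonged to the set, and of the 15 highest, 3, where the set makes up 22.8% of all peaks.

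The 14 peaks beyond the run were far apart, and none was among the strong or wide peaks of the set. The first stretch without a peak after the run measured 0.913 Mb; the last 1 Mb of the run held 70 peaks and the first 1 Mb after it held 1. Of the 14, 9 lay before 35 Mb, and the only ones with another peak within 250 kb were the 3 between 30698491 and 31073656. Their scores ran from 50.27 to 74.14 with a median of 57.2, none passed 100, and the widths ran from 582 to 923 bp with a median of 695 bp.

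The 5 that scored over 60, all above the set's median of 63.2, are spread along the chromosome. They were at 25146896 to 25147652 (score 63.37), 30177935 to 30178787 (66.18), 50772685 to 50773607 (64.57), 97653368 to 97653965 (74.14) and 107979208 to 107979945 (73.26). The most isolated was the peak near 50.77 Mb, whose nearest neighbour lay 15.9 Mb away, followed by those near 97.65 and 107.98 Mb, 10.3 Mb from each other, and by the peak at 34833274 to 34833897 (score 54.29), 3.76 Mb from its nearest. The stretch between the peaks at 50.77 and 97.65 Mb, 46.9 Mb long, held none. The last 2 peaks, at 119225542 to 119226302 and 121884733 to 121885427, scored 53.06 and 50.27 and lay 2.66 Mb apart.

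**Figure D2:**
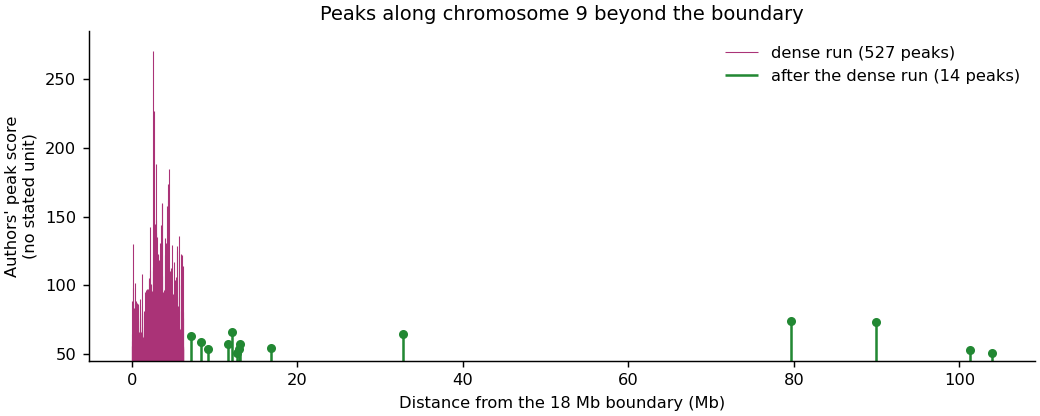
Score of each of the 541 peaks (vertical axis, no stated unit) against distance from the 18 Mb boundary in Mb, with the dense run in purple and the 14 later peaks in green. The run ends 6.22 Mb after its first peak, and the later peaks lie between 50.27 and 74.14.

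Fewer peaks flanked the block on this side than on the other. In the 8 Mb after its end lay 8 peaks (1 per Mb, median score 57.2, highest 66.18). In the 8 Mb before its start, below the boundary, lay 63 (7.88 per Mb, median score 56.4, highest 115.84). The flanks thus differed in number while their median scores lay within 1 unit of each other. No control coverage was used, and the difference between the flanks was not tested.

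Peaks of the run lay a few kilobases apart. The median distance between neighbouring centres was 6.96 kb, with quartiles of 3.18 and 15.4 kb, and the median gap between facing edges was 5.90 kb. Over the whole set, 437 of 541 peaks (80.8%) had another peak centre within 10 kb, all of them in the run. On chromosome 9 below 18 Mb 75.5% did, so close spacing was shared with the adjoining portion. On chromosome 8 67.3% did and on chromosome 3 59.4%. In the whole list, which includes both portions of chromosome 9, 62.9% did. The share was 89.3% between 20 and 23 Mb, 70.2% between 18 and 20 Mb and 76.8% from 23 Mb to the run's end.

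Some neighbours were all but joined. Of the 540 gaps between successive peaks, 73 were at most 1 kb and 9 were at most 100 bases, the smallest being 2 bases. Joining peaks with edges within 1 kb turned the 541 peaks into 468 sites: 408 single peaks, 49 pairs and 11 groups of 3 or more, the largest with 4. The group from 20930604 to 20935982 joins the third summit to both neighbours over 5.38 kb, and the group from 22470587 to 22476711 joins the widest peak to 2 others over 6.13 kb. With edges within 10 kb, 213 sites remained, and the largest, from 22399064 to 22476711, held 17 peaks in 77.6 kb.

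Score and width rose together in the set, with a Spearman rho of 0.68 over 541 peaks. The 146 peaks under 700 bp had a median score of 53.8 and none scored over 100. The median was 62.3 for the 190 peaks of 700 to under 1000 bp, 80.2 for the 144 of 1000 to under 1500 bp, 99.8 for the 40 of 1500 to under 2000 bp and 138 for the 21 of at least 2000 bp. Of those 21, 14 scored over 100, and 19 lay between 20 and 23 Mb.

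Single peaks departed from this. The peak at 21763697 to 21765420 was 1724 bp wide with a score of 50.59, and the one at 19659573 to 19660267 was 695 bp wide with 95.17. The lowest score of the list, 50, belonged to a peak of 1228 bp at 18441298 to 18442525. Beside the widest peak, the widths of the next 4 were 2885, 2843, 2426 and 2402 bp, with scores of 134.04, 143.54, 188.26 and 226.83. The 5 narrowest measured 437, 488, 497, 500 and 510 bp and scored 67.25, 53.52, 50.96, 59.88 and 52.77, so 4 of the 5 were below 60.

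**Figure D3:**
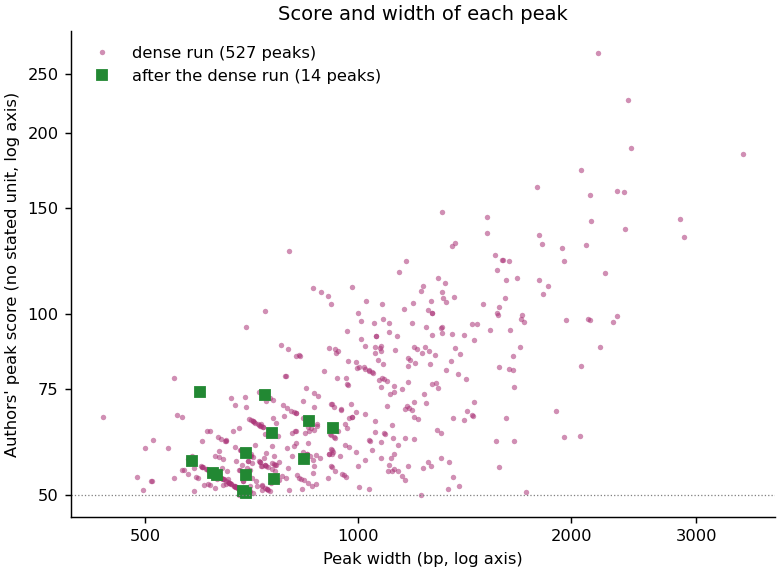
Score (no stated unit) against width in bp of each of the 541 peaks, both on log axes, with the dotted line at the lowest score of 50. Peaks of the dense run are purple and the 14 later peaks are green squares, which sit at 582 to 923 bp and below 75.

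Among narrow peaks the score took repeated values that were tied to the width. Of 85 pairs of peaks under 700 bp with the same width, 27 (31.8%) had the same score to 2 decimals, against 876 of 2086 (42.0%) in the rest of the list; in the set, of 70 such pairs from 700 to under 1000 bp, 4 did. All 4 peaks that were 698 bp wide scored 50.12, all 3 of 677 bp scored 51.25 and both of 603 bp scored 55.58. Along this series the score falls as the width grows. A curve was drawn through 17 repeated values under 700 bp, picked for their low scores, with 1 divided by the score as a straight line in width. The repeated value of 58.45 at 697 bp, which lies above the curve, was left out. The curve passed within 0.2% of 74 of the 137 peaks from 550 to under 700 bp. The values it was drawn through belong to 38 of these, and it passed as near to 36 of the other 99 (36.4%). It reaches the lowest score of 50 at a width of 700.4 bp.

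Other levels ran above it, and 18 of the 137 peaks lay below it. Under 750 bp, 8 widths were held by at least 3 peaks with exactly 2 distinct scores, whose ratio ran from 1.02 to 1.43. At 618 bp the scores were 54.65 and 63.84, at 640 bp 53.34 and 61.99, and at 697 bp 50.17 and 58.45, with ratios of 1.17, 1.16 and 1.17. The same curve passed within 0.2% of 378 of the 670 peaks of 550 to under 700 bp in the rest of the list, which were not used to draw it, so the repeated values were found outside the set too. Along such a curve, scores differ as the widths do, and its peaks were not ranked against each other here. The repeated values were looked for after the plot of score and width had been seen.

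**Figure D4:**
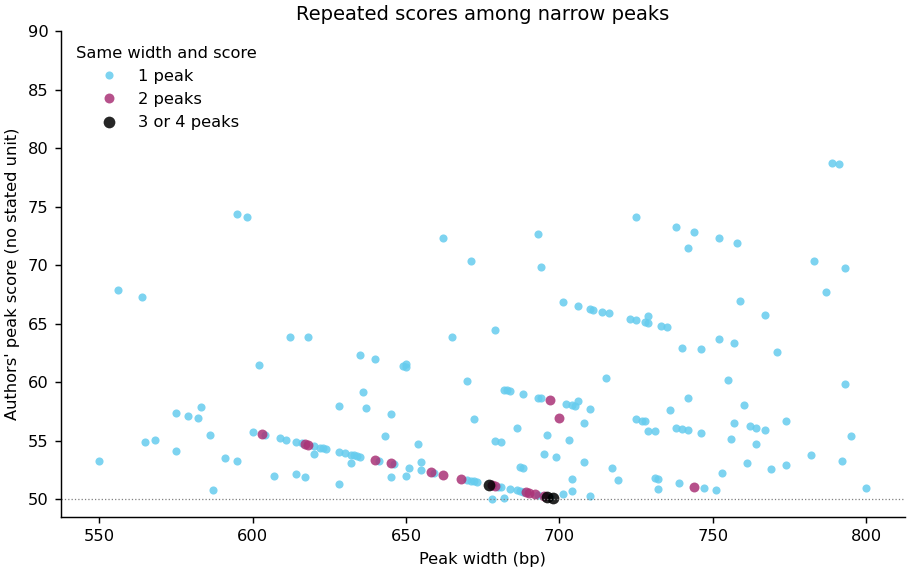
Score (no stated unit) against width in bp of the peaks from 550 to 800 bp that scored at most 80, coloured by how many peaks share both values. The most crowded line of points falls to 50.12 at 698 bp, where 4 peaks coincide, and further falling lines lie above it.

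Set beside the 564 peaks of chromosome 9 below 18 Mb, the peaks from 18 Mb on had somewhat higher scores and were wider. The median score was 63.2 (quartiles 54.7 and 81.7) against 59.97 (53.3 and 74.7), and 64 of 541 (11.8%) against 46 of 564 (8.16%) scored over 100. The median width was 864 bp against 783 bp. The 114 peaks from 18 to 20 Mb, next to the boundary, were lower than the portion below, with medians of 58.4 and 764 bp and 2.63% over 100. The portions also differ in make-up. The one below includes 63 peaks in the 8 Mb before the block, and the set includes 14 beyond the run. The whole list had medians of 59.4 and 764 bp. Of its 2370 peaks, 238 scored over 100 (10.0%), a share between those of the portions. The 208 peaks of chromosome 8 had medians of 69.9 and 1012 bp, with 52 over 100 (25%). Peaks of 1 library are not replicates, so these differences have no test.

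At a given width, the 2 portions of chromosome 9 had similar scores. The medians of the portion from 18 Mb and of the portion below were 53.8 and 53.0 under 700 bp, 62.3 and 61.2 from 700 to under 1000 bp, 80.2 and 78.9 from 1000 to under 1500 bp, 99.8 and 101 from 1500 to under 2000 bp, and 138 and 141 at 2000 bp or more. The mix of widths was less alike. Peaks under 700 bp made up 27.0% of the set and 35.1% of the portion below, and peaks of 1500 to under 2000 bp made up 7.39 and 4.26%. Chromosome 8 had higher medians in the wider classes, 86.1, 131 and 154 for the last 3.

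**Figure D5:**
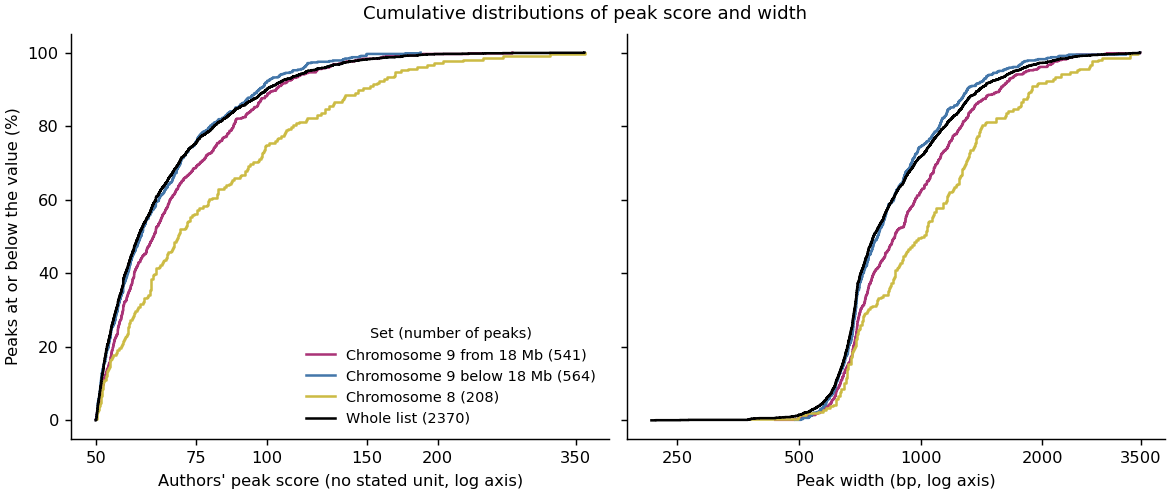
Cumulative share of peaks (percent) at or below each score (left, no stated unit) and width in bp (right), on log axes, for the peaks of chromosome 9 from 18 Mb, those below 18 Mb, chromosome 8 and the whole list. The set's median score of 63.2 lies between 59.97 for chromosome 9 below 18 Mb and 69.9 for chromosome 8.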

How the data were processed

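Chromatin of MEL cells was captured on streptavidin and, per the labels' protocols, 3 to 9 ng of DNA was tailed for HeliScope single-molecule sequencing. The authors deposited peak intervals with 1 score each; the caller was CisGenome, per the file headers, and the coordinates are on mm9, as the submitters' processing notes say. The track name reads "Bcl11a_XL_onES_pcut5 only"; its last terms are not explained, so the list may be a subset of a longer one, to which the counts, shares and densities here would not apply. Control, settings, aligner and depth are likewise not given in the sources used here, and no interval that needs depth is printed.

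Coordinates are printed counting from 1. Centres, widths, gaps, bins, runs, merged sites and Spearman's rho were computed with Python 3.11.15, numpy 2.4.6, pandas 2.3.3 and scipy 1.17.1, and drawn with matplotlib 3.10.9. The steps for runs, merged sites, nearest centres, densest windows and rho were tested on simulated lists, and the others were not. No test was run: 1 sample of each kind has no replicate, and only 1 list was used. Peaks were named by rank: the 15 highest scores, the 5 widest, narrowest and most isolated, the 5 densest windows of 100 kb, the 5 on each side of the boundary and those beyond the run scoring over 60; the peaks singled out for a score unlike their width, and those sharing a width and score, were chosen after seeing their values. The members and lists were chosen with earlier results of these data known. The planned search of peak sequence was not run, since it needs an mm9 genome.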

Additional observations from a re-analysis of the deposited data

How the results depend on the processing

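Of 24 alternatives, 11 left the value within its range, which was a factor of 1.5 for counts, rounding to 2 decimals for rho, and otherwise a 95% exact binomial interval over peaks (61.3 to 65.0 for the median score, 826 to 917 bp for the width and 77.2 to 84.0% for the share with a neighbour within 10 kb). The other 13 alternatives moved the value. The binomial intervals served only as a fixed yardstick. Neighbouring peaks of 1 list are not independent replicates, so these intervals measure no error. The 541 peaks became 304 with a score of at least 60, 309 with a score above the list's median and 213 when merged within 10 kb. After the dense run alone, the median score was 57.2, the median width 695 bp and rho of score and width 0.20 over 14 peaks. Among the peaks above the list's median, the median score was 78.1, which that choice raises. With a score of at least 60 the median width was 1077 bp, the share with a neighbour within 10 kb 66.8% and rho 0.61, and rho was 0.44 under 1000 bp. The 10 runs became 19 with a gap of 25 kb and 2 with 100 kb. No value reversed. No paired analysis was possible because only 1 list was used. The planned sequence search was not run. The list gives no reads, so limits set by depth cannot be stated, and the floor of the score at 50 hides weaker peaks.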
